A study of Mus musculus with 6 samples.

Results

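The citrate cycle, anaplerotic and fatty acid oxidation genes were examined in RET cells, a mouse melanoma cell line (labelled strain C57BL\6), after silencing of Angpt2. The genes were a named list of 38 enzymes and subunits chosen by function, and all 38 had a transcript cluster with exactly 1 gene symbol among 22180 named genes. Per the labels, 3 cultures carried Angpt2 shRNA-1, the only hairpin against Angpt2 here, and 3 carried a non-targeting shRNA, with titles that also hold the word GFP. All cultures were grown for 24 h in high-glucose DMEM with serum and non-essential amino acids, and 100 ng of total RNA from each went on its own Affymetrix Mouse Gene 2.0 ST array. Effects of Angpt2 loss cannot be told apart from other effects of this hairpin, and RNA per cell was not measured. The values are intensities on a linear scale as normalized by the authors, so group differences are read between arrays within 1 gene. Between genes, signals are set side by side only as a rough guide to level and background.

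The citrate cycle takes acetyl-CoA, made from pyruvate by the pyruvate dehydrogenase complex or from fatty acids by beta-oxidation, and oxidises it in mitochondria while feeding electrons to the respiratory chain. Anaplerotic enzymes such as pyruvate carboxylase and glutamate dehydrogenase refill the cycle as its intermediates are drawn off for aspartate, lipid and haem synthesis. In melanoma cells the melanocyte regulator Mitf is known to drive the coactivator Ppargc1a and, through it, mitochondrial genes.

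Angpt2 itself read 100.2, 122 and 122 on the silenced arrays, against 195, 372 and 326 on the control arrays. Every silenced array lay below every control array, with a log2 fold change of -1.33 (SE 0.21), although limma's adjusted p over all genes was 1.00. With so few arrays a two-sided exact permutation test cannot go below 0.1, and it gave 0.1. The melanocyte identity of the line was plain, since 10 of 10 lineage genes read between 599 and 9651. All 27 measured markers of fibroblasts, endothelium, immune cells, epithelium and fat cells read between 45.2 and 175, with array medians of 74.5 to 76.2. Signal in that range cannot be told from background. The Angpt2 signals of the silenced arrays lay within it, and those of the control arrays lay above it. Background on the silenced side therefore limits what the size of the Angpt2 fold change can show. The 6 immune markers all read highest on control replicate 1, and the part of this in the results was not tested. Mitf was lower on all silenced arrays (2414, 2537 and 2502) than on all control arrays (2908, 2970 and 2681), with a log2 fold change of -0.20 (SE 0.08) that did not pass the test. Ppargc1a read 1395, 1410 and 1600 in silenced cells and 1927, 1271 and 1165 in control cells, so the groups overlapped.

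No gene of the module passed the test. The limma fit over all 22180 named genes called 0% of them at an adjusted p of 0.05, and 0 of the 38. At an unadjusted p under 0.05 the count was again 0 of 38, where 3.76% of all named genes passed. Dlat (limma unadjusted p = 0.0502) and Sucla2 (limma unadjusted p = 0.0524) lay just past that cut. The count was 2 with quantile normalization and 2 with a pseudocount of 16, where 3.67% and 3.7% of all named genes passed. The differences were small. The log2 fold change, silenced minus control, lay within 0.1 of zero for 27 genes and within 0.3 for 37, and Acot2 alone lay outside. The 95% interval stayed within 1.5-fold in both directions for 35 of the 38 genes, and within 1.2-fold for 15. A fit with a term for the replicate number called 2 genes in the whole table, Angpt2 and Pld4, and neither is in the module.

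**Figure D1:**
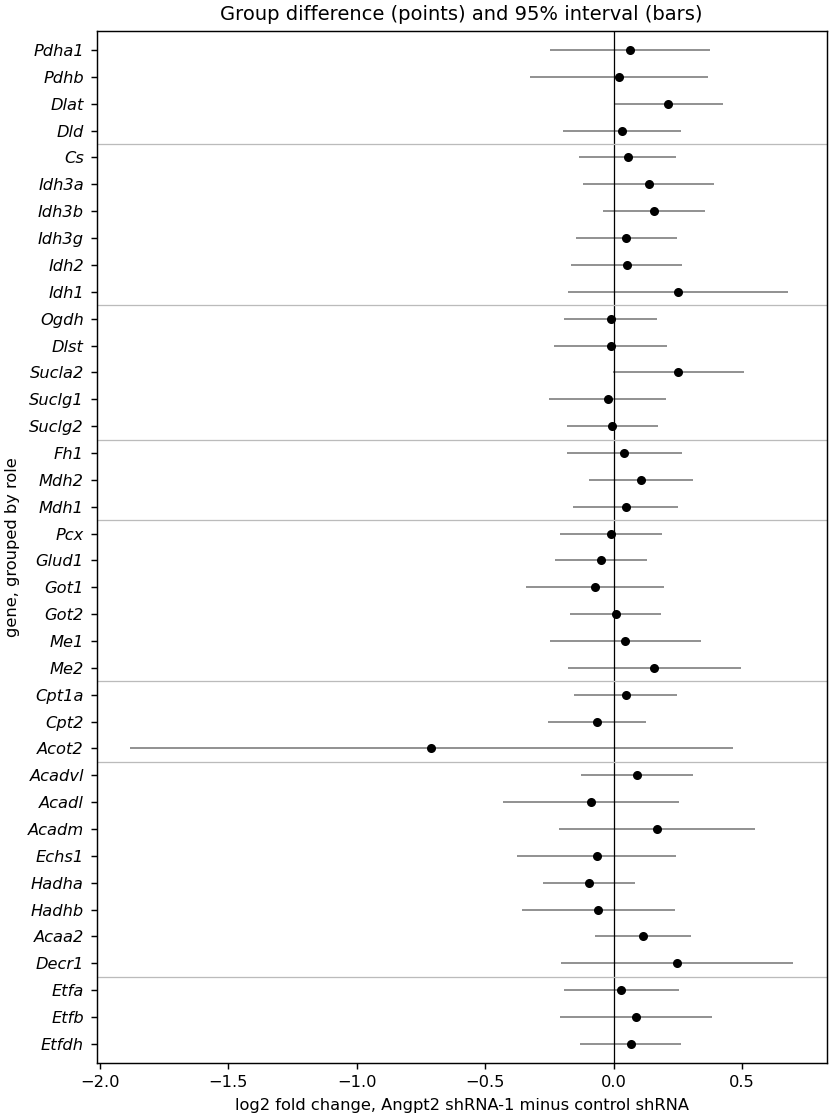
Log2 fold change of each of the 38 genes, Angpt2 shRNA-1 minus control shRNA (horizontal axis), with the 95% interval from limma as bars, grouped by role down the page. Points lie close to 0 apart from Acot2 at -0.71, whose bar runs from -1.88 to 0.46.

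By direction, 25 of the 38 genes (65.8%) had a positive log2 fold change and 13 a negative one, where 45.2% of all named genes were positive. The median over the 38 was 0.05, against -0.01 over all named genes. This balance shifted with single arrays. Without Angpt2 shRNA-1 replicate 3 the positive count was 18 of 38 and the median -0.01, and without control replicate 2 it was 21 of 38 with a median of 0.01. In the other direction, it was 29 of 38 with a median of 0.06 without Angpt2 shRNA-1 replicate 2.

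For 5 genes, or 13.2% of the module, all 3 silenced arrays lay on one side of all 3 control arrays, where 9.01% of all named genes did so. They were Dlat, Idh3b, Sucla2 and Acaa2 on the higher side, and Hadha on the lower side. Among all named genes such separation was seen for 3.53% upward and 5.48% downward. For each of the 5 the exact permutation p was 0.1.

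The pyruvate dehydrogenase complex is built from an E1 enzyme (Pdha1 and Pdhb), the E2 acetyltransferase Dlat and the E3 dehydrogenase Dld. Dlat read 865, 838 and 837 in silenced cells and 661, 732 and 806 in control cells. The silenced arrays were tight and above all controls, while control replicate 1 was the lowest of the 6. Its log2 fold change was 0.21 (SE 0.09, limma adjusted p = 1.00), with log2 means of 9.72 ± 0.03 in silenced and 9.51 ± 0.14 in control cells (SD, n = 3 arrays each). Without control replicate 1 the value of Dlat was 0.14. Within replicate numbers 1, 2 and 3 the difference was 0.39, 0.19 and 0.05. Its partners did not separate. Pdha1, the catalytic E1 alpha subunit, read 626, 699 and 778 in silenced cells against 684, 788 and 554 in control cells. Pdhb, the E1 beta subunit, read 1258, 1285 and 1432 in silenced cells against 1642, 1033 and 1310 in control cells. In both genes the control arrays spanned the silenced ones. Dld, which the 2-oxoglutarate dehydrogenase complex also uses, ranged from 1525 to 1898 with a log2 fold change of 0.03 (SE 0.10).

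From citrate to 2-oxoglutarate all 6 genes had positive values, with a median log2 fold change of 0.10, which was 0.03 without control replicate 1. Without control replicate 2 Idh3g turned to -0.01. Idh3b, a subunit of the NAD-dependent isocitrate dehydrogenase, read 2223, 2199 and 2107 in silenced cells and 2102, 1814 and 1951 in control cells. Its groups were set apart by a narrow gap, between 2107 in silenced replicate 3 and 2102 in control replicate 1, with a log2 fold change of 0.16 (SE 0.09, limma adjusted p = 1.00). Without control replicate 2 the value of Idh3b was 0.10. The catalytic subunit gene Idh3a read 1870, 2113 and 2233 in silenced cells and 1655, 1910 and 2102 in control cells, higher in silenced cells within each replicate number but overlapping between groups. Idh3g, the third subunit, lay between 1693 and 1959 over the 6 arrays. The cytosolic NADP-dependent enzyme gene Idh1 had a larger value, 0.25, and a larger error (SE 0.19). It read 1019, 830 and 1121 in silenced cells and 603, 924 and 1010 in control cells. Control replicate 1 alone was low, and without that array the log2 fold change of Idh1 was 0.02. Idh2, its mitochondrial counterpart, was at 0.05 (SE 0.10), and citrate synthase (Cs), the entry enzyme of the cycle, was at 0.05 (SE 0.08) with all 6 arrays between 2355 and 2660.

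In the section from 2-oxoglutarate to succinate, succinyl-CoA synthetase joins the alpha subunit Suclg1 to a beta subunit, ATP-forming Sucla2 or GTP-forming Suclg2. Sucla2 read 488, 440 and 580 in silenced cells and 437, 391 and 432 in control cells. Silenced replicate 3 was the highest, and silenced replicate 2 exceeded control replicate 1 only slightly. Its log2 fold change was 0.25 (SE 0.11, limma adjusted p = 1.00) and was 0.14 without Angpt2 shRNA-1 replicate 3. The shared partner Suclg1 read 509, 459 and 576 in silenced cells against 531, 500 and 533 in control cells, so both the lowest and the highest array were silenced ones. The alternative beta subunit Suclg2 was among the steadiest genes, between 1879 and 2008, with a log2 fold change of -0.01 (95% interval -0.18 to 0.17). A dimmer cluster with the Suclg2 symbol, between 117 and 167, gave 0.11. Ogdh and Dlst, the E1 and E2 components of the 2-oxoglutarate dehydrogenase complex, were both at -0.01 (SE 0.08 and 0.10). Of the genes that complete the cycle, fumarase (Fh1) was at 0.04 (SE 0.10), mitochondrial malate dehydrogenase (Mdh2) at 0.11 (SE 0.09) and its cytosolic form (Mdh1) at 0.05 (SE 0.09). Mdh2 read 3383, 3408 and 3751 in silenced cells against 3301, 3034 and 3463 in control cells.

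**Figure D2:**
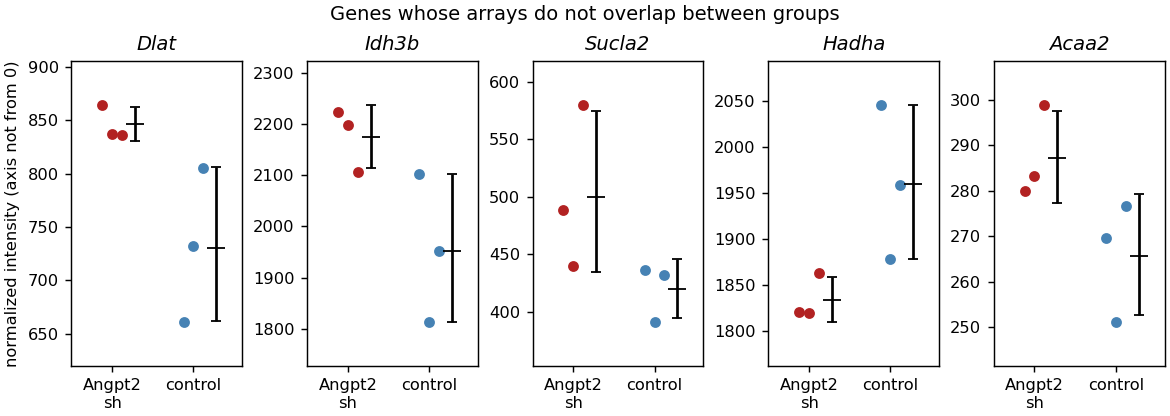
Normalized intensity (vertical axis, not from 0 and scaled for each gene) of the 5 genes whose arrays did not overlap between groups, Angpt2 shRNA-1 left and control right in each panel. Points are single arrays in the order of replicates 1 to 3, and the bar is the geometric mean with 1 SD on the log2 scale. Dlat, Idh3b, Sucla2 and Acaa2 were higher and Hadha lower on every silenced array.

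Among the anaplerotic and transamination genes 3 were positive and 3 negative, with a median log2 fold change near 0 (-0.002). Mitochondrial aspartate aminotransferase (Got2) was flat, at 4112, 3997 and 4047 in silenced cells and 3872, 4151 and 4076 in control cells, with a 95% interval of -0.17 to 0.18. A second, dim cluster of Got2, between 64.5 and 123, gave -0.18. Glutamate dehydrogenase (Glud1) lay between 1023 and 1115 (-0.05, SE 0.08). Pyruvate carboxylase (Pcx), which makes oxaloacetate from pyruvate, lay between 129 and 150 (-0.01, SE 0.09), within the range of the markers of other cell types. Cytosolic aspartate aminotransferase (Got1) read 2483, 2416 and 2871 in silenced cells against 3189, 2464 and 2550 in control cells, highest on control replicate 1. Its log2 fold change of -0.07 (SE 0.12) was 0.04 without that array. The mitochondrial malic enzyme gene Me2 read 549, 598 and 850 in silenced cells and 580, 587 and 590 in control cells. The controls were almost identical and silenced replicate 3 stood apart, and the value of 0.16 (SE 0.15) was -0.03 without it. Me1, the cytosolic form, also read highest there (694, 619 and 883 in silenced cells against 662, 745 and 701 in control cells).

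Fatty acids enter mitochondria as carnitine esters, through Cpt1a on the outer and Cpt2 on the inner membrane. Neither transferase differed beyond the spread of its arrays. Cpt1a read 356, 340 and 370 in silenced cells against 317, 355 and 362 in control cells (0.05, SE 0.09), and Cpt2 read 394, 413 and 418 in silenced cells against 455, 403 and 424 in control cells (-0.07, SE 0.08).

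The dehydrogenases of the first step of beta-oxidation, Acadvl, Acadl and Acadm for very long, long and medium chains, did not separate by group. Acadm read 930, 933 and 673 in silenced cells and 591, 844 and 825 in control cells, so the lowest array of each group lay far below the other two. Its log2 fold change was 0.17 (SE 0.17) and 0.002 without control replicate 1. Acadl read 926, 832 and 1016 in silenced cells against 1127, 764 and 1089 in control cells, with both extremes among the controls. Acadvl was even in silenced cells (345, 346 and 339) and more spread in control cells (357, 325 and 288).

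Later steps held both remaining genes with separated groups. Hadha, the alpha subunit of the mitochondrial trifunctional protein, read 1821, 1820 and 1863 in silenced cells and 2046, 1879 and 1958 in control cells. All silenced arrays were lower, by a log2 fold change of -0.10 (SE 0.08, limma adjusted p = 1.00), or 1.07-fold. Its partner Hadhb read 75.9, 70.7 and 96.7 in silenced cells and 87.1, 74.2 and 90.9 in control cells. These signals cannot be told from background, and Hadhb was the only one of the 38 below the median level of all named genes. Acaa2, the mitochondrial thiolase, read 280, 283 and 299 in silenced cells and 270, 251 and 277 in control cells, a log2 fold change of 0.11 (SE 0.08, limma adjusted p = 1.00), or 0.07 without control replicate 2. Silenced replicate 1 exceeded control replicate 3 by a margin smaller than the spread within either group. Echs1, the short-chain hydratase, read 645, 664 and 679 in silenced cells and 848, 563 and 699 in control cells, with both extremes in the controls. Decr1, the dienoyl-CoA reductase needed for unsaturated fatty acids, had a log2 fold change of 0.25 (SE 0.20). It read 300.2, 242 and 265 in silenced cells and 165, 312 and 223 in control cells. Without control replicate 1, its lowest array, the value of Decr1 was 0.02, and without control replicate 2, its highest, it was 0.48.

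The electron transfer flavoprotein passes electrons from these dehydrogenases to ubiquinone. Etfa was at 0.03 (SE 0.10), Etfb at 0.09 (SE 0.13) and the membrane-bound oxidoreductase Etfdh at 0.07 (SE 0.09). Etfb read 547, 470 and 613 in silenced cells against 580, 438 and 518 in control cells. In all 3 genes the highest array was silenced replicate 3 and the lowest was control replicate 2.

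Acot2, a mitochondrial thioesterase that frees CoA from acyl-CoA, was the most variable gene of the module. It read 1576, 1156 and 1697 in silenced cells and 6799, 1347 and 1477 in control cells. Control replicate 1 stood alone, while the other 5 arrays overlapped. The ratio of highest to lowest array was 5.88, against at most 1.89 for the other 37 genes. The log2 fold change was -0.71 (SE 0.52, 95% interval -1.88 to 0.46, limma adjusted p = 1.00), and without control replicate 1 it was 0.05. Within replicate numbers 1, 2 and 3 the difference was -2.11, -0.22 and 0.20. Acot1, a neighbouring gene of closely similar sequence, read 247, 192 and 176 in silenced cells against 231, 202 and 179 in control cells, with no such excess on control replicate 1. The peroxisomal relatives Acot3, Acot4, Acot5 and Acot6 read between 46.4 and 118 on all arrays.

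**Figure D3:**
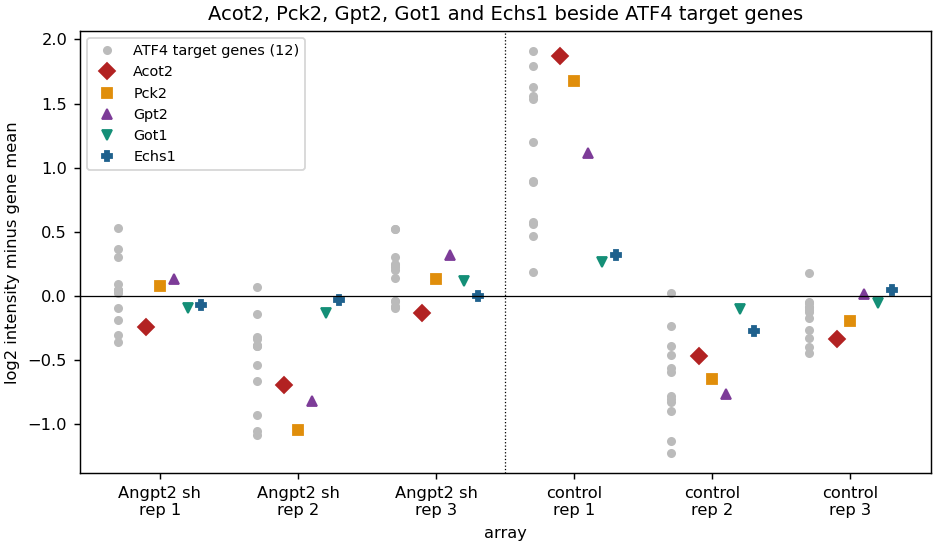
Log2 intensity minus each gene's mean over the 6 arrays (vertical axis) on every array (horizontal axis, Angpt2 shRNA-1 left of control), for 12 ATF4 target genes (grey) and for Acot2, Pck2, Gpt2, Got1 and Echs1 (coloured). All 12 ATF4 targets and the 5 coloured genes lie above their means on control replicate 1. The coloured genes all read highest on that array and were picked with their values known, so their height there is no separate result.

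Some other genes moved with Acot2 on that array. ATF4 is the transcription factor of the amino acid and integrated stress response. Of 12 ATF4 target genes, 11 read highest on control replicate 1, and the median of their deviations from each gene's 6-array mean was 1.05 there, against 0.05, -0.39 and 0.22 on the silenced arrays and -0.68 and -0.12 on control replicates 2 and 3. The same array was the highest for Pck2, the mitochondrial PEP carboxykinase that drains oxaloacetate, at 768, 353 and 796 in silenced cells and 2324, 466 and 635 in control cells. Gpt2, the mitochondrial alanine aminotransferase, read 426, 221 and 485 in silenced cells and 843, 229 and 394 in control cells. In both genes control replicate 2 and silenced replicate 2 held the lowest values. They were among 6 genes highest on control replicate 1 out of 18 measured anaplerosis and shuttle genes outside the module. That was 33.3%, against 26.9% of named genes above the median level. Another 6 of the 18 (33.3%) were lowest on that array, against 24.1%. Whether the culture of control replicate 1 was under stress was not measured. A part of such a response in the values of Acot2, Pck2 and Gpt2 was not tested.

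Promoter windows were read to see which of these genes hold the composite C/EBP-ATF letters that ATF4 is known to bind. The search used TGATGNAA on both strands, from 250 bases before to 50 bases after the start of each gene, in RefSeq windows of GRCm38.p6. The module had windows for 34 of its 38 genes, not for Idh3a, Me2, Acaa2 and Decr1. Matches were found in 2 of the 34 (5.88%), Got1 and Echs1, where 4.51% of 27025 genes had one. Both read highest on control replicate 1, as did 26.3% of the module and 26.9% of named genes above the median level. The other genes of the module highest on that array had no match. Of 11 ATF4 target genes with a window, 5 had a match (Asns, Chac1, Trib3, Atf3 and Slc7a11). Acot2 had none in this window, and Pck2 had 1. No result for Gpt2 is given. The 250 bases before the start are printed for Acot2, the most variable gene, for the 2 matching genes of the module, and for Pck2, with the matched letters in capitals, 5′ to 3′ on the strand of the gene. They lie at chr12:83987611-83987860 (plus strand), chr19:43524606-43524855 (minus strand), chr7:140116422-140116671 (minus strand) and chr14:55540016-55540265 (plus strand) in that order.
Acot2: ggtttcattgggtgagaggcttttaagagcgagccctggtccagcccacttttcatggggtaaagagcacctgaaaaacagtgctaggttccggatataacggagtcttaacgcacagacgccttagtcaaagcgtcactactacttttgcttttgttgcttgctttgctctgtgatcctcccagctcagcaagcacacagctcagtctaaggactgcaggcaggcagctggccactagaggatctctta
Got1: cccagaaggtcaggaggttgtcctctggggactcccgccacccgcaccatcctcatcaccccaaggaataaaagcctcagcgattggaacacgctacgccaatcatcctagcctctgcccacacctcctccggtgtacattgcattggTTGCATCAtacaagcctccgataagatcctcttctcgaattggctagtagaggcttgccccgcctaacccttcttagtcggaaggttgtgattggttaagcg
Echs1: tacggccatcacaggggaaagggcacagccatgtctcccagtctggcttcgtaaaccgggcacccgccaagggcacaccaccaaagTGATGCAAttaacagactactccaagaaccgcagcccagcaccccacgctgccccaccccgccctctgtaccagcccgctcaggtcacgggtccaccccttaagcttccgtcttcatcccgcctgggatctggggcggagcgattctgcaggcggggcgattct
Pck2: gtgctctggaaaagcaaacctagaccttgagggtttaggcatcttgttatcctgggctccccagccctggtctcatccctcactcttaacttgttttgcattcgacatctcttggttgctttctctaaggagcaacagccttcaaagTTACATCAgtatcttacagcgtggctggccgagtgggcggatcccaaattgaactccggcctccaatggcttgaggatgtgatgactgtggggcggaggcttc
The matches of Got1 (-102 to -95) and Pck2 (-103 to -96) lay on the opposite strand and that of Echs1 (-164 to -157) on the strand of the gene, counted from its start. The letters of the oestrogen-related receptors, TCAAGGTCA, were in 0 of 34 and in 0.466% of all genes. These counts describe the letters in the windows and not binding.

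Across the 6 cultures the module varied mainly by array. Angpt2 shRNA-1 replicate 3 held the highest value of 19 of the 38 genes (50%), where it did so for 14.6% of named genes above the median level, and it was the lowest for 0. On that array 34 of the 38 lay above their own mean, with a median deviation of 0.10. Control replicate 2 held the lowest value of 16 genes (42.1%), against 20.6% of named genes above the median level, with a median deviation of -0.10. The other 4 arrays had median deviations of -0.02 and -0.03 (silenced replicates 1 and 2) and -0.01 and 0.03 (control replicates 1 and 3).

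**Figure D4:**
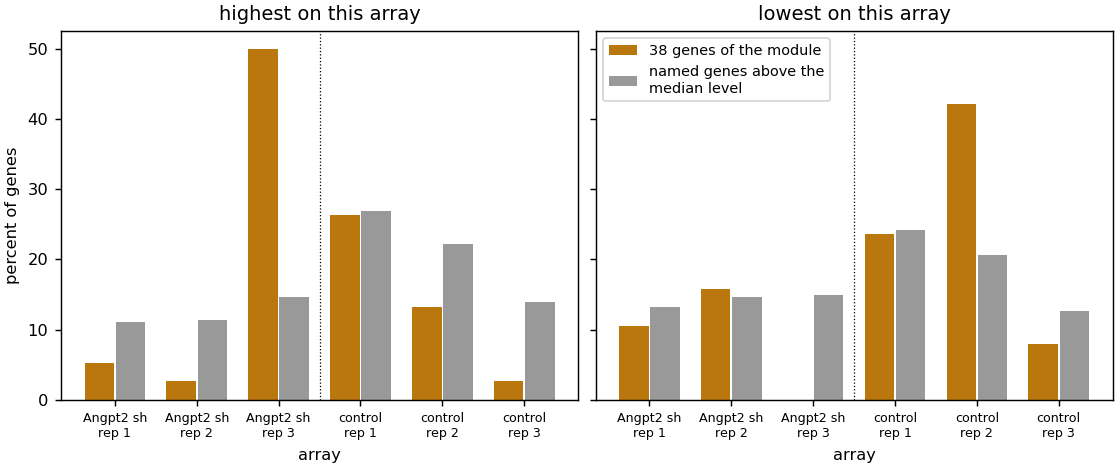
Percent of genes (vertical axis) that read highest (left panel) or lowest (right panel) on each array (horizontal axis, Angpt2 shRNA-1 left of control), for the 38 genes (brown) and for named genes above the median level (grey). Angpt2 shRNA-1 replicate 3 was the highest array for 50% of the module and control replicate 2 the lowest for 42.1%.

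The genes highest on silenced replicate 3 included Idh1, Idh2, Idh3a, Idh3g, Dlst, all 3 succinyl-CoA synthetase genes, Fh1 and both malate dehydrogenases. The others were both malic enzymes, the 3 electron transfer genes, Cpt1a, Hadhb and Acaa2. Of 17 measured citrate cycle genes outside the module, 8 read highest on control replicate 1 and 5 (29.4%) on silenced replicate 3. Hypoxia and glycolysis genes moved with that array, since 9 of 12 measured members read highest there and their median deviation was 0.48, against -0.17 and -0.18 on silenced replicates 1 and 2 and -0.02, -0.19 and 0.22 on control replicates 1, 2 and 3. Their part in the values of the module was not tested. Control replicate 1 was the highest array for 10 genes (26.3%, against 26.9% of named genes above the median level), namely Pdhb, Dld, Pcx, Got1, Cpt2, Acot2, Acadvl, Acadl, Echs1 and Hadha. It was the lowest for 9 (23.7%, against 24.1%), namely Dlat, Cs, Idh3a, Idh1, Ogdh, Got2, Cpt1a, Acadm and Decr1. Both shares were near those of the other genes.

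**Figure D5:**
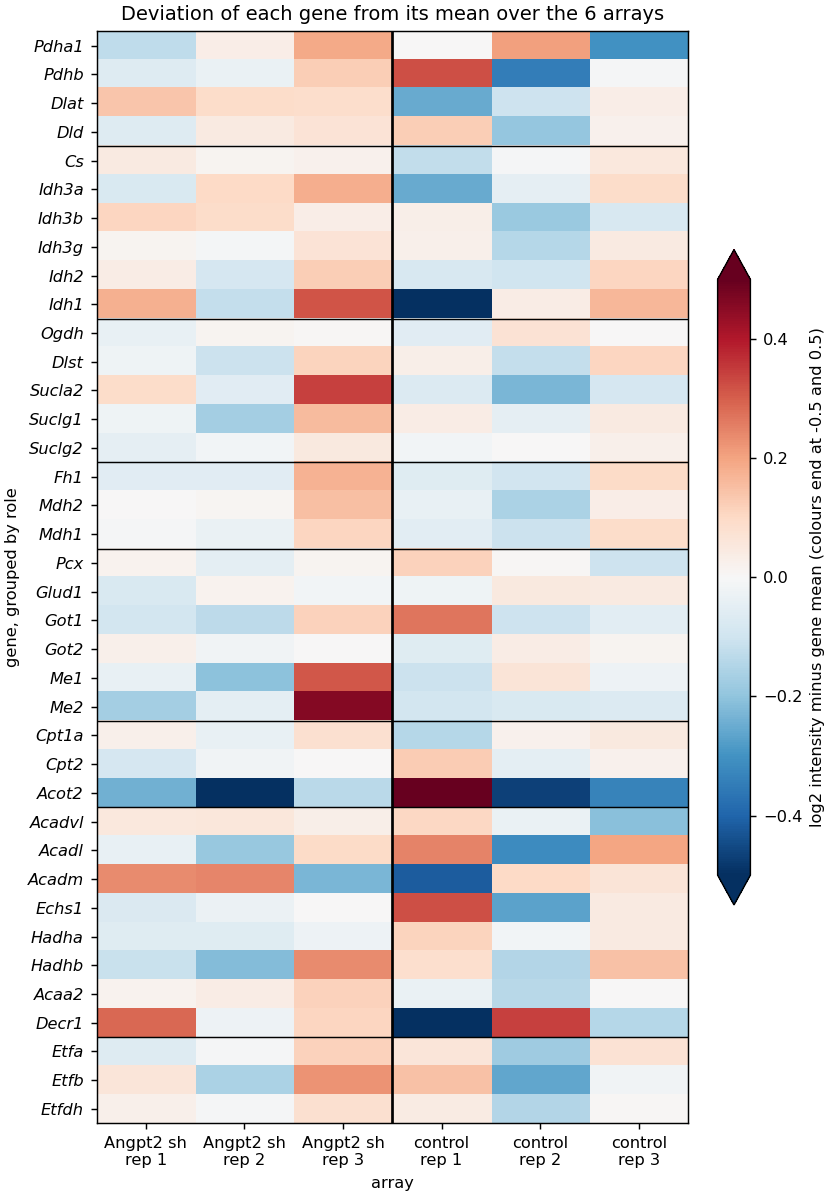
Log2 intensity of each of the 38 genes (down the page, grouped by role) minus its mean over the 6 arrays, with Angpt2 shRNA-1 arrays left of control arrays. Colours end at -0.5 and 0.5, and 34 of the 38 genes lie above their mean on Angpt2 shRNA-1 replicate 3.

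Co-variation was described on deviations from the group means, over the same 6 arrays and without a test. Among the 37 genes above the median level the median pairwise correlation was 0.27, and 14.4% of 666 pairs exceeded 0.8, against 0.001 and 6.88% over all pairs of named genes above that level. Partners in a complex did not behave uniformly. Suclg1 and Sucla2 followed each other closely (0.99), as did Etfa and Etfb less tightly (0.78). Suclg1 and Suclg2 gave 0.64, and Ogdh and Dlst -0.46. Hadha and Hadhb gave 0.63, though the signals of Hadhb cannot be told from background. Outside the complexes, Fh1, Mdh1 and Mdh2 had a median of 0.93. Within pyruvate dehydrogenase, Pdhb and Dld gave 0.95, while the other 5 pairs were negative, from -0.20 for Pdha1 and Pdhb to -0.57 for Pdha1 and Dlat. Idh3a and Idh3b gave -0.63, Idh3a and Idh3g 0.10, and Idh3b and Idh3g 0.59. The closest pair of all was Pdhb with Hadha (0.998), and the most opposed was Got1 with Acadm (-0.98). All these values share 6 libraries and so largely restate which arrays were high or low.

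Further genes of the same pathways gave no call either. Of 20 citrate cycle genes outside the module 17 were measured and the others were not analysed here. Among the 17, 0 passed over all genes, 11 were negative and 6 positive, and the median log2 fold change was -0.04. Pdp1, the phosphatase that reactivates pyruvate dehydrogenase, was the only one with an unadjusted p under 0.05, where 3.76% of all named genes passed. It read 123, 110 and 126 in silenced cells against 145, 136 and 132 in control cells (-0.20, SE 0.09, limma adjusted p = 1.00). The groups did not overlap for 2 of the 17, Pdp1 and Pdk4, where 9.01% of all named genes did so. Sdha, the flavoprotein of succinate dehydrogenase, was at -0.02 (SE 0.08). Of 18 measured genes among 20 further anaplerosis and shuttle genes 0 passed, with 8 positive and 10 negative and a median of -0.01. Pck2 had the value farthest from 0 among them, -0.56 (SE 0.54).

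Of 33 measured genes among 38 further fatty acid oxidation genes 0 passed, 14 were positive and 19 negative, and the median log2 fold change was -0.01. At an unadjusted p under 0.05 there were 3 of the 33, where 3.76% of all named genes passed. Slc22a5, the plasma membrane carnitine transporter, read 146, 147 and 127 in silenced cells and 162, 187 and 165 in control cells (-0.29, SE 0.10). Acad11, a dehydrogenase of long-chain acyl-CoA, read 392, 347 and 331 in silenced cells and 302, 275 and 325 in control cells (0.25, SE 0.10). Acot9, a mitochondrial thioesterase, read 101.2, 119 and 102 in silenced cells against 122, 124 and 125 in control cells (-0.21, SE 0.09). Each had a limma adjusted p of 1.00, and they were the 3 of the 33 whose groups did not overlap. That share was near the 9.01% of all named genes whose groups did not overlap. The signals of Acot9 and most of those of Slc22a5 were as dim as markers of other cell types.

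Of 8 regulators 0 passed, with 4 positive and 4 negative. Ppara, the nuclear receptor that drives fatty acid oxidation in liver, read 72.4, 72.8 and 67.8 in silenced cells and 84.4, 89.4 and 91.5 in control cells, a log2 fold change of -0.32 (SE 0.08, limma adjusted p = 1.00). Its groups were well apart, but signals this near the array medians cannot be told from background. Tfam, which packages and transcribes mitochondrial DNA, read 273, 272 and 262 in silenced cells against 227, 268 and 178 in control cells (0.28, SE 0.14).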

How the data were processed

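Total RNA of 6 RET cultures was profiled on Affymetrix Mouse Gene 2.0 ST arrays, per the labels' protocols. The deposited values are normalized linear intensity for each transcript cluster (28.1 to 12624), and the authors' background correction, probe summarization and normalization are not stated in the labels. Of 41345 clusters, 40425 had a value on all arrays. The platform annotation gave exactly 1 symbol for 23521, several for 1814 and none for 16010. Per gene the cluster with the highest mean was used (22180 genes). There are no detection calls, and 6 arrays limit the precision.

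Log2 values without pseudocount were compared with lmFit and eBayes (limma 3.58.1, R 4.3.3), two-sided, Benjamini-Hochberg over all genes, threshold 0.05; adjusted p-values are from this fit. The fit was also run on simulated data with independent noise for each gene and array. That setting lacks the shared movement of genes by array seen here, so it gives no power for the module. Groups come from the genotype labels, and replicates are called biological there. Deviations of same-numbered arrays correlated at 0.13, 0.21 and 0.14 over genes. A fit with the replicate number as a block was therefore run as an alternative, while the fit reported is unpaired. Alternatives were the block, 2 other normalizations, a filter on dim genes, the mean of all clusters, other eBayes options, array weights, a pseudocount of 16 and leaving out each array.

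The genes and lists were chosen with earlier results of these data known. Values on every array are given for genes with separated groups, the largest positive and largest negative log2 fold change of each role group, the brightest and dimmest member, and some more genes chosen after their values were seen, among them Mitf and Ppargc1a. Other genes are named where an unadjusted p was under 0.05, or else for the largest value of a list. Promoters are from RefSeq (GRCm38.p6), and the annotation of the arrays names no build.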

Additional observations from a re-analysis of the deposited data

How the results depend on the processing

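No gene of the module was called under any of the 14 alternatives run. Over all named genes the number called was 0 in the fit reported and 2 with the replicate block (Angpt2 and Pld4), 1 with trend and robust options, and 0 to 2 when an array was left out. With the block Angpt2 passed (limma adjusted p = 0.046), as it did without control replicate 1 (adjusted p = 0.0116). Beyond Angpt2 and Pld4 the block changed no call. Leaving out an array moved the count of positive genes between 18 and 29 of 38, the median log2 fold change over the module between -0.01 and 0.06, and the count of genes with separated groups between 6 and 9. The value of 9 came without control replicate 2 or 3, where 20.1% and 21.7% of all named genes separated, fewer arrays being compared. With the mean of all clusters Got2 was at -0.0849. The sign turned for 21 of the 38 genes when some array was left out. Among genes named by rule the leave-one-out ranges that crossed 0 were -0.0218 to 0.0285 for Got2, -0.149 to 0.0430 for Got1, -0.0126 to 0.0838 for Cpt1a, -1.12 to 0.0465 for Acot2, -0.0313 to 0.284 for Me2, -0.0206 to 0.188 for Etfb, -0.108 to 0.0561 for Suclg1 and -0.193 to 0.0329 for Hadhb; apart from the arrays left out, the cause was not tested. Array weights lowered the median over the module to 0.02. Signal near background limits Hadhb, Pcx, Ppara, Acot9, Pdp1 and the silenced level of Angpt2, and with 3 arrays a group a difference for the typical gene of the module had a 95% interval reaching 0.22 on the log2 scale to each side.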
